A study of Sus scrofa domesticus with 6 samples.

Results

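The cells described are monocytes and macrophages of reperfused pig lung grafts, chosen by their own RNA from the 2 libraries of CD45-sorted graft cells. A cell passed the gate if it held at least 500 UMIs (unique molecular identifiers, the tags by which single transcripts are counted), at least 3 UMIs of CD14, CD68, CD163 and CSF1R together, at least 0.3% of its UMIs in the MHC class II genes CD74 and HLA-DRA, and 0 UMIs of the lymphocyte genes CD3E, CD79A and MS4A1. In IRI CD45+ replicate 1, 58 of 4538 cells passed (1.28%, 95% exact Clopper-Pearson interval 0.972 to 1.65). In IRI CD45+ replicate 2, 256 of 4076 passed (6.28%, 5.56 to 7.07). Together they were 314 of 8614 cells (3.65%) of these libraries, out of 41545 cells with at least 500 UMIs in the series. Because these genes chose the cells, their levels are descriptions and were not tested, and intervals cover counting error only.

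The series models ischemia-reperfusion injury (IRI) by transplanting a lung between pigs (Sus scrofa domesticus). In the IRI CD45+ group (2 libraries) the transplanted lung had been stored cold for 24 hours and reperfused for 8 hours, and its cells were stained with a CD45 antibody and a viability dye and sorted as CD45 positive by flow cytometry. In the control group (3 libraries) the cells came from the perfused right lung of the donors and were not sorted. One further library held CD45-negative graft cells (IRI CD45-). All lungs were digested with a lung dissociation kit and freed of red cells. The labels give no age, sex or breed and do not say which animal gave which library, so p-values measure the spread between these libraries. Sort, injury, animal and the set of counted genes, which differed between graft and control libraries, cannot be told apart in a comparison of IRI CD45+ with control.

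Monocytes are blood cells that enter tissue and can become macrophages there, while resident lung macrophages live in the airspaces and in the interstitium. Macrophages engulf dying cells through scavenger and bridging receptors, digest them in lysosomes rich in cathepsins, and release cytokines and chemokines that recruit other leukocytes. C1QA, C1QB and C1QC code for the chains of complement C1q and are made by tissue macrophages, whereas VCAN (versican) and S100A8 mark blood monocytes and, for S100A8, also neutrophils.

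The label of monocytes and macrophages was set against its markers. On the scale of CPM, a gene's share of the summed UMIs scaled to a common total, CD163, the hemoglobin scavenger receptor, stood at 568 and 571 in the gated cells of replicates 1 and 2, against 16.9 and 82.2 in all other cells of the same libraries. CD14, the lipopolysaccharide co-receptor, stood at 561 and 571 CPM against 87.7 and 181, and CD68, a lysosomal membrane glycoprotein, at 512 and 374 against 38.4 and 99.2. CTSB, cathepsin B, did not enter the gate and stood at 10273 and 8390.5 CPM in gated cells and 913 and 1839 in the other cells. A CTSB UMI was found in 96.6 and 99.2% of gated cells. It was also found in 59.6 and 66.1% of T-gate cells (2 or more UMIs of CD3D and CD3E, none of the myeloid gate genes), so its detection alone did not separate the cells. CD163, CD14 and CD68 chose the cells, so their higher levels in gated cells followed from the gate. CTSB, which did not choose them, was higher in the gated cells of both libraries.

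Gated cells of replicates 1 and 2 had median depths of 11528.5 and 9186 UMIs, against medians of 2936 and 2695 UMIs in the other cells. At the edge of the gate, 3 and 18 gated cells held exactly 3 UMIs of the 4 gate genes, and 6 and 35 cells with 2 such UMIs were left out. MHC class II shares between 0.3% and 0.4% were found in 10 and 67 gated cells, and shares between 0.2% and 0.3% in 15 and 65 cells left out. The lymphocyte genes removed 15 and 37 cells. Scrublet called no gated cell a doublet and 2 cells in each whole library, so the call was not used, and the top 6% of its scores held 6 and 24 gated cells. The granulocyte receptor gene CSF3R had 2 or more UMIs in 20.7% and 33.2% of gated cells, against 29.4%, 26.2% and 17.4% of cells passing the same gate in controls 1 to 3. Cells of the deposited matrices carry running numbers as names: 4233 names occurred in both IRI CD45+ libraries, and 0 of them had the same UMI total.

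Against all other cells of their libraries, gated cells carried the RNA of phagocytes and lacked that of lymphocytes. Of 5747 genes with at least 20 CPM, 488 (8.49%) were at least 2-fold higher in gated cells in both libraries and 623 (10.8%) at least 2-fold lower, on the scale of log2(CPM + 10). The gate used values of these same cells, so nothing was tested. All 11 measured members of the macrophage gene list were 2-fold higher, as were 19 of 24 genes of cathepsins and lysosomes, 8 of 11 complement genes and 5 of 7 MHC class II genes. The genes of the list of oxidative phosphorylation gave 0 of 37 in either direction.

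LGALS3, the phagocyte lectin galectin-3, stood at 1837 and 1383 CPM in gated cells and 78.5 and 205 CPM in the other cells. EMP1, a small membrane protein, stood at 2883 and 3052 against 166 and 539 CPM, and the proteoglycan gene SDC2 at 962 and 1059.5 against 35.6 and 148 CPM. MMP14, a membrane-bound collagenase, reached 702 and 479 CPM in gated cells, against 19.9 and 70.2 CPM in the others. DAB2, an endocytic adaptor, stood at 502 and 266 against 9.93 and 30.2 CPM, and FABP5, a fatty acid binding protein, at 491 and 486 against 70.9 and 84.6 CPM. RARRES1, ADAP2, ACVRL1 and ISG12(A) completed this order with 157 to 520 CPM in gated cells of either library. The chemokine gene CCL8 differed between libraries, with 1233 and 127 CPM in the gated cells of replicates 1 and 2 and 13.2 and 6.52 CPM in the other cells, and the phospholipase gene PLA2G2D had 695 and 151 CPM against 7.89 and 17.4.

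The genes most depleted from gated cells were those of T, NK and plasma cells. ETS1, a lymphocyte transcription factor, stood at 31.4 and 24.3 CPM in gated cells and 893 and 720.3 CPM in the others. The granzyme genes GZMA and GZMB stood at 9.99 and 7.85 and at 12.8 and 10.5 CPM, against 354 and 278 and 421 and 314 CPM, and the immunoglobulin joining chain JCHAIN at 17.1 and 22.8 against 443 and 521 CPM. CD69, CD247, S1PR1, CTSW, LTB, CD3D, CRTAM and ABLIM1 had 2.62 to 27.3 CPM in gated cells of either library. Against cells of a neutrophil gate in the same libraries (98 and 193 cells chosen by CSF3R), 184 genes were 2-fold higher and 167 lower among 4549 measured.

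The gated cells spread widely in C1q. The planned score, the share of macrophage genes among macrophage and monocyte genes, placed 92.6% and 91.6% of scored cells in its macrophage range and 2 and 1 cells in its monocyte range. Of its 8 monocyte genes 3 were not listed, and LGMN, the lysosomal protease legumain, made up 34.4% and 53.9% of the macrophage UMIs. The spread is therefore described by C1QA, C1QB and C1QC, which lie side by side on chromosome 6 (C1QA at chr6:80586259-80589213, C1QC at chr6:80592591-80597464 and C1QB at chr6:80601680-80606076, Sscrofa11.1), a choice made after seeing the data. Cells with at least 0.2% of UMIs in these genes are called C1Q-high, and those with under 0.02% C1Q-low. In IRI CD45+ replicate 1, 29 cells were C1Q-high (50%, 36.6 to 63.4), 1 was between and 28 were C1Q-low, of which 26 had no C1q UMI. In replicate 2, 35 were C1Q-high (13.7%, 9.71 to 18.5), 18 between and 203 C1Q-low, of which 179 had none. In control replicates 1, 2 and 3, 35.7%, 37.1% and 63.3% of cells passing the same gate were C1Q-high, so the graft libraries lay on either side of 2 of the controls.

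**Figure D1:**
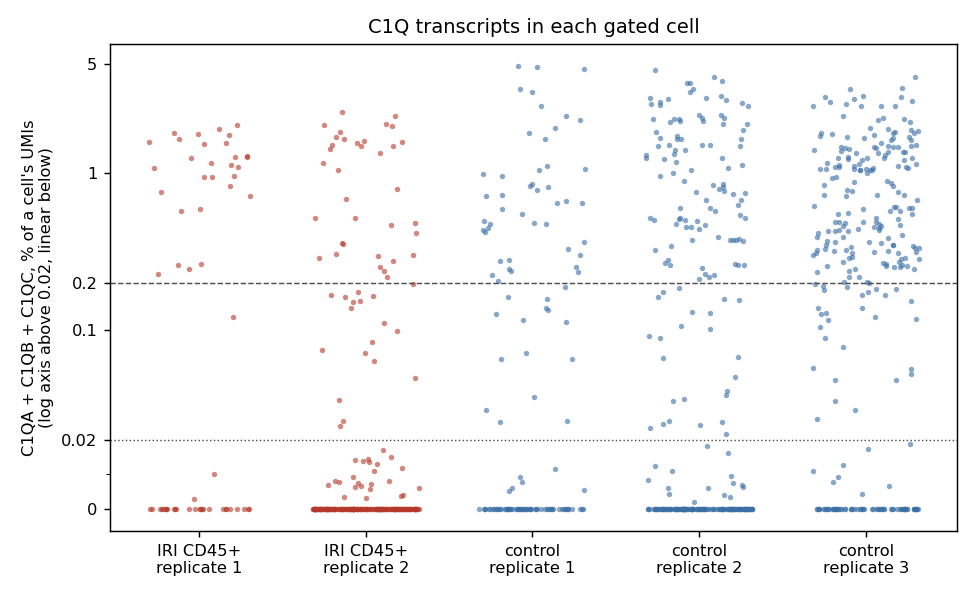
Share of each gated cell's UMIs in C1QA, C1QB and C1QC (percent, logarithmic above 0.02 and linear below) in the 2 IRI CD45+ and the 3 control libraries, 1 point per cell. The dashed line at 0.2% bounds the C1Q-high and the dotted line at 0.02% the C1Q-low cells, and 179 of the 256 cells of IRI CD45+ replicate 2 lie at 0.

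C1Q is a range and not a cell type. Between 0.1% and 0.4% lay 5 and 19 cells of the IRI CD45+ libraries. C1Q-high cells had a median of 10827 and 10965 UMIs and C1Q-low cells 14184.5 and 8650, so depth ran in opposite directions in the 2 libraries. Of the top Scrublet scores, 0 and 1 fell on C1Q-high cells and 5 and 19 on C1Q-low cells. Between the C1Q-high and C1Q-low cells of each library, 100 of 4632 measured genes (2.16%) were at least 2-fold higher in both libraries and 64 (1.38%) at least 2-fold lower, without the C1q genes themselves. These are descriptions of cells split by their own RNA, with no test.

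C1Q-high cells carried more RNA of complement and scavenger receptor genes. CST3, the protease inhibitor cystatin C, stood at 14822 and 11363 CPM in the C1Q-high cells of replicates 1 and 2 and at 869 and 824 CPM in their C1Q-low cells. C3, the central complement protein, stood at 425 and 217 CPM against 0 and 4.99, and C4BPA, a complement inhibitor subunit, at 261 and 155 against 0 and 0.499. The complement genes C1R and SERPING1 were higher too, with 195 and 183 and 338 and 346 CPM, against 40 and 63.3 and 101 and 128 CPM. The scavenger receptor genes moved with C1q: MSR1 stood at 571 and 339 against 18.7 and 46.4 CPM, the mannose receptor MRC1 at 1045 and 375 against 173 and 66.8 CPM, and STAB1 (stabilin-1) at 239 and 148 against 26.7 and 7.48 CPM. VSIG4, a complement receptor, stood at 93.1 and 79 against 0 and 18 CPM, and the sialic acid receptor SIGLEC1 at 40.3 and 28 against 0 and 8.48 CPM. ACP5, an acid phosphatase, had 149 and 161 CPM against 2.67 and 0. In all, 4 of 9 measured macrophage genes, 3 of 9 scavenger receptor genes and 3 of 8 complement genes were higher, and of these lists only TREM1 of the scavenger list was lower, with 3.1 and 20.4 CPM against 21.3 and 84.8.

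Of 10 measured chemokine genes CXCL8, CCL2 and CCL8 were at least 2-fold higher in C1Q-high cells and none was lower. CCL8 stood at 2572 and 489 CPM in C1Q-high cells, against 93.3 and 66.3 CPM in C1Q-low cells, and the monocyte chemoattractant CCL2 at 2308 and 815 against 179 and 318 CPM. CXCL8, which attracts neutrophils, stood at 7547 and 3078 against 2584 and 1496 CPM, and CCL14 at 161 and 150.3 against 10.7 and 12 CPM. The anti-inflammatory cytokine IL10 (chr9:67400727-67405941) stood at 413 and 186 CPM in C1Q-high and 85.3 and 77.3 CPM in C1Q-low cells. With each cell thinned to 2000 UMIs, 44.8% (26.5 to 64.3) and 21.2% (8.98 to 38.9) of C1Q-high cells had an IL10 UMI, against 15.4% (4.36 to 34.9) and 7.57% (4.2 to 12.4) of C1Q-low cells and 5.27% and 5.81% of T-gate cells. Unthinned, the shares were 62.1% and 42.9% of C1Q-high, 35.7% and 25.1% of C1Q-low and 7.39% and 9.90% of T-gate cells. Shallower cells were left out, 0 and 2 C1Q-high, 2 and 18 C1Q-low, and 182 and 135 T-gate cells. In replicate 2, the C1Q-low share therefore stood near that of T cells, some of which make IL10 themselves.

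The other genes most tied to C1Q-high cells were RARRES1 (431 and 629 CPM against 18.7 and 50.9 CPM), the adhesion genes JAML (440.5 and 211 against 96 and 42.4) and VCAM1 (267 and 189 against 26.7 and 61.3), and the adenosine receptor gene ADORA3 (319.5 and 117 against 77.3 and 26.9). CCDC152 had 149 and 255 CPM against 0 and 2.49 CPM. The RefSeq annotation of Sscrofa11.1 overlaps its end with SELENOP, so its reads are uncertain. The receptor gene IL7R (292 and 199 against 101 and 90.8 CPM) and the MHC class II gene SLA-DQB1 (6285 and 5449.6 against 2757 and 2638 CPM) were at least 2-fold higher, as the only members of their lists.

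Some genes of the extended monocyte list were lower in C1Q-high cells. VCAN stood at 3.1 and 7.64 CPM in C1Q-high and 101 and 40.9 CPM in C1Q-low cells, S100A8 at 80.7 and 441 against 699 and 938 CPM, and LYZ (lysozyme) at 164 and 436 against 472 and 967 CPM. Of 7 measured members of the extended monocyte list 4 were at least 2-fold lower in C1Q-high cells, these among them, and none was higher. The extended list summed to 1632 and 1633 CPM in C1Q-high cells and 2251 and 3770.0 CPM in C1Q-low cells of IRI CD45+ replicates 1 and 2, and neutrophil-gate cells of the same libraries held more, 9351 and 8273 CPM. The neutrophil markers summed to 8909 and 4380 CPM in C1Q-high and 3968 and 4117 CPM in C1Q-low cells, with MPO at 0 in each. Of the 16 markers 11 were listed in both IRI CD45+ libraries, and CXCR1, CXCR2, FCGR3B and CAMP were among those not listed. MPO is 1 member and does not stand for the list. CXCL8, given above, made up most of the C1Q-high sums and a smaller share of the C1Q-low sums in both libraries. Of 6 measured neutrophil markers S100A8 and LTF were at least 2-fold lower in C1Q-high cells and CXCL8 at least 2-fold higher. The part of neutrophil RNA was not tested. The small calcium-binding genes S100A4 (12.4 and 163 against 635 and 496 CPM) and S100A6 (43.4 and 268 against 667 and 599 CPM) and the leukocyte surface gene CD52 (9.31 and 71.3 against 211 and 234 CPM) followed. AQP3, a water and glycerol channel, showed a wide gap, with 31 and 2.55 CPM in C1Q-high and 744 and 491 CPM in C1Q-low cells. PLBD1, CDA (cytidine deaminase), the protease inhibitor SERPINB1, the transglutaminase TGM3 and the growth factor AREG were lower in C1Q-high cells as well, with 208 and 211 CPM against 1389 and 611 for SERPINB1 and 68.2 and 140.1 CPM against 715 and 395 for AREG. CSF1, the growth factor of macrophages, stood at 155 and 204 against 347 and 462 CPM, and PTGES, which makes prostaglandin E2, at 12.4 and 81.5 against 107 and 182 CPM.

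ARG1, arginase 1, which splits arginine into ornithine and urea (chr1:32006035-32028983), was abundant in both ranges. It stood at 5909 and 4856 CPM in C1Q-high cells of replicates 1 and 2 and at 13747 and 11031 CPM in C1Q-low cells. With each cell thinned to 2000 UMIs, 65.5% and 69.7% of C1Q-high and 84.6% and 96.8% of C1Q-low cells held an ARG1 UMI, against 12.2% and 31.1% of T-gate cells, which should lack it. Unthinned, the shares were 86.2% and 91.4% of C1Q-high, 89.3% and 99.0% of C1Q-low, and 23.6% and 53.0% of T-gate cells. Summed T-gate cells had 79.9 and 183 CPM of ARG1, while the neutrophil gate of these libraries had 19231 and 14138 CPM. ARG1 in gated cells was thus far above the T-gate level and below that of neutrophil-gate cells. CTSB and ACSL4 differed by under 2-fold between the ranges, with 9067 and 11009 CPM of CTSB in C1Q-high and 11400.0 and 8033 CPM in C1Q-low cells.

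**Figure D2:**
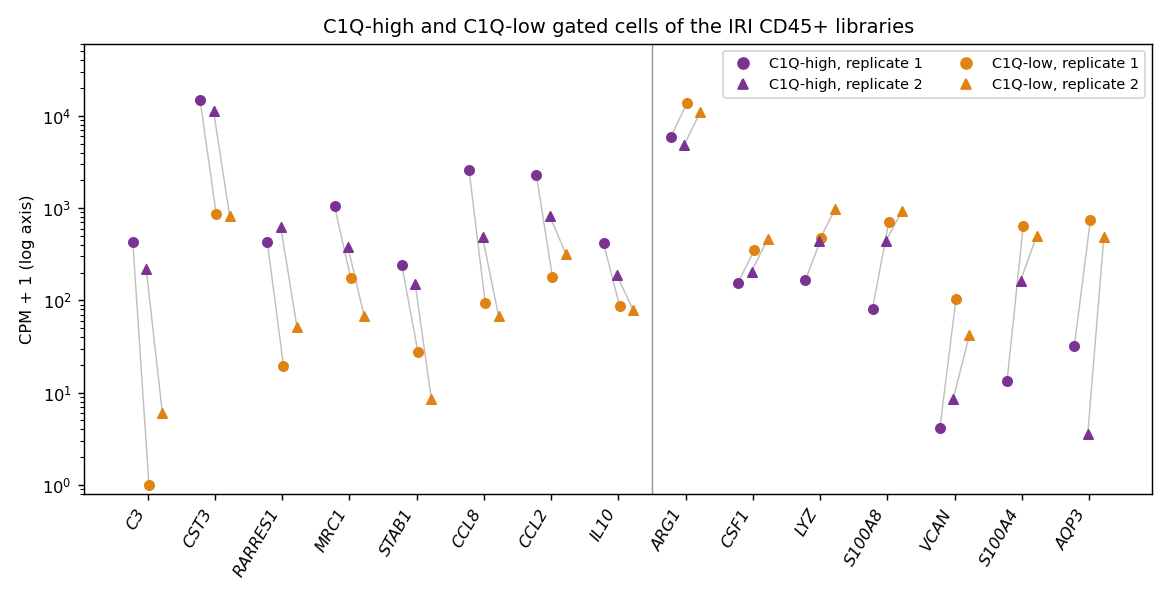
Summed expression (CPM + 1, logarithmic axis) of selected genes in C1Q-high (purple) and C1Q-low (orange) gated cells of IRI CD45+ replicates 1 (circles) and 2 (triangles), with lines joining the cells of a library. Genes left of the divider are higher and those right of it lower in C1Q-high cells in both libraries; VCAN and C3 show values under 10 CPM on their low side.

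Gated graft cells were then compared with cells passing the same gate in the control lungs (126, 275 and 281 cells), to ask how graft monocytes and macrophages differed from those of donor lungs. UMIs were summed per library and tested in edgeR (quasi-likelihood F test), and every adjusted p of this comparison is a Benjamini-Hochberg value over 10632 genes. Of these, 1923 genes (18.1%) were higher and 2508 (23.6%) lower in IRI CD45+ at an adjusted p under 0.05. All IRI CD45+ values lay above all control values for 18.9% of genes and below them for 46.0%, on unscaled CPM. Printed CPM are unscaled, and the printed log2 changes, after TMM scaling, lie 0.307 above the log2 ratio of those CPM. The median log2 change of all genes was -0.129. Fewer cells of a type and less RNA per cell cannot be told apart in such sums.

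The genes with the largest rises included those of cytokine receptors, secreted proteins and enzymes. IL2RA, the alpha chain of the interleukin-2 receptor, stood at 42.8 and 144 CPM in IRI CD45+ replicates 1 and 2 and at 3.72, 1.19 and 4.1 CPM in controls 1 to 3 (log2 change 5.42, SE 0.65, adjusted p = 5.8e-04). It was 4.07 without IRI CD45+ replicate 2 and 6.03 without replicate 1. RETN, the secreted protein resistin, had 60 and 73.3 CPM against 2.97, 1.59 and 2.05 (log2 change 5.30, SE 0.36, adjusted p = 5.0e-07). FDFT1, squalene synthase of cholesterol synthesis, had 1913 and 1604 CPM against 98.9, 98.3 and 67.2 (log2 change 4.62, SE 0.22, adjusted p = 2.0e-08), and EMP1 2884 and 3055 CPM against 155, 255 and 82.8 (log2 change 4.49, SE 0.44, adjusted p = 4.0e-04). The 2 groups did not overlap for these genes, which was a condition for naming them. IL1R1, the signaling receptor of interleukin-1, rose by 4.49 on the log2 scale, CDA by 4.45, the proteoglycan SDC1 by 4.27 (3.22 without IRI CD45+ replicate 2) and PTGES by 4.13 (3.15 without that replicate). TMEM26 rose by 5.17 (5.81 without control replicate 2). TGM3 had 1962 and 1007 CPM against 58.7, 129 and 20.9 (log2 change 4.69, SE 0.86, adjusted p = 0.019), and its adjusted p was 0.111 without IRI CD45+ replicate 1, 0.106 without replicate 2 and 0.0537 without control replicate 1, and its change was 5.5 without control replicate 2. The adjusted p of IL1R1, CDA, SDC1, PTGES and TMEM26 was at most 0.0020.

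COL3A1, a fibroblast collagen, had 0 and 1.87 CPM in IRI CD45+ and 66.2, 164 and 250.5 CPM in controls (adjusted p = 0.0026), with an adjusted p of 0.0888 without IRI CD45+ replicate 1 and 0.135 without replicate 2. The matrix gene MGP had 2.86 and 1.12 CPM against 29.7, 228 and 198 (adjusted p = 0.040; 0.211 and 0.329 without replicates 1 and 2). The fibroblast and mural markers summed to 2.85 and 4.49 CPM in IRI CD45+ and 168, 512 and 682 CPM in controls, and 6 of 6 tested members fell; in IRI CD45+ replicate 1, 7 of 9 were at 0, among them COL1A1, COL1A2, DCN and PDGFRA. Their part in other results was not tested. PODN, the matrix proteoglycan podocan, had 5.71 and 4.86 CPM against 434, 311 and 432 (log2 change -5.91, SE 0.33, adjusted p = 8.7e-08). PDE4D, a cyclic AMP phosphodiesterase, had 15.7 and 9.73 CPM against 589.7, 544 and 578 (log2 change -5.29, SE 0.28, adjusted p = 4.1e-08). GPHN and FBXL17 stood lower, at log2 changes of -5.89 and -5.43 (-7.87 and -6.68 without IRI CD45+ replicate 2). CKAP2L, a protein of the mitotic spindle, had 0 and 2.25 CPM against 121, 109 and 139. RGS16, which limits G protein signaling, had a log2 change of -5.07 (-3.99 and -5.68 without replicates 2 and 1), LMBR1 of -4.99 (-4.22 without replicate 2) and PTGES3L of -5.47 (-4.02 and -6.69 without replicates 2 and 1). PDE4D, GPHN, FBXL17 and LMBR1 span over 50 kb of the genome, and COL3A1, MGP, PODN, CKAP2L, RGS16 and PTGES3L span less. Whether gene length bears on these falls was not tested.

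**Figure D3:**
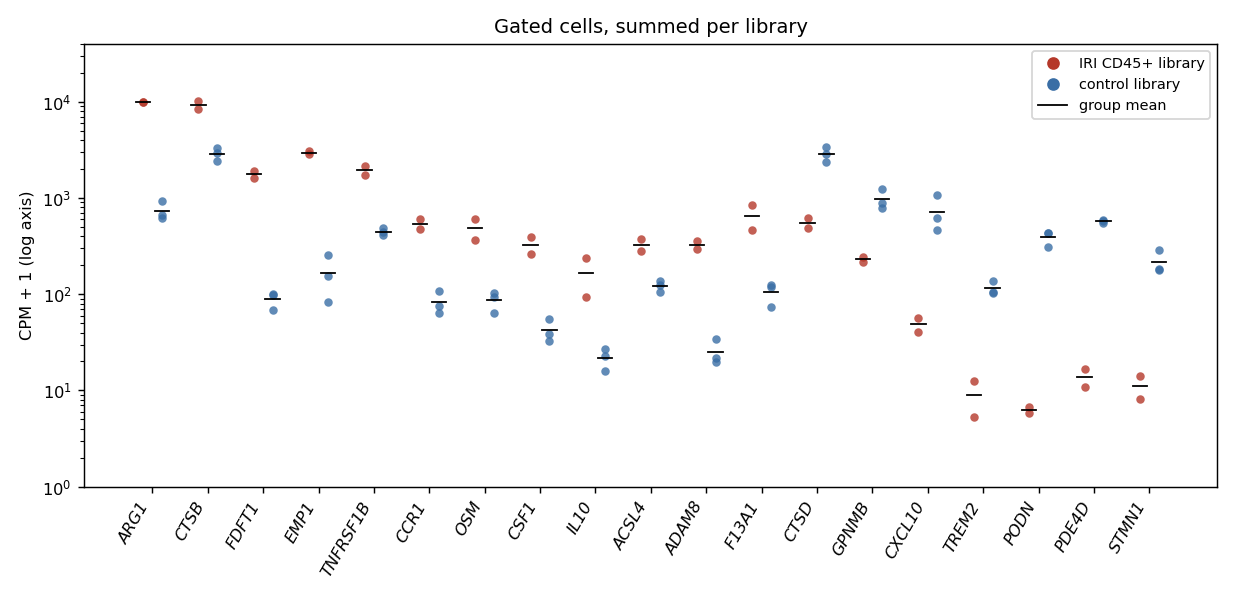
Expression (CPM + 1, logarithmic axis) of named genes in gated cells summed per library, with 1 point per IRI CD45+ (red, left) or control (blue, right) library and a bar at the group mean. ARG1 to F13A1 are higher and CTSD to STMN1 lower in both IRI CD45+ libraries than in every control library.

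Cytokine and receptor genes rose where they changed. Among inflammatory cytokine genes 10 of 17 tested rose and none fell (median log2 change 1.58, against -0.129 over all genes). Among chemokine and growth factor receptor genes 12 of 16 rose and none fell (median 1.785). Over all genes 18.1% rose and 23.6% fell. OSM, oncostatin M of the interleukin-6 family, stood at 366 and 609.6 CPM in IRI CD45+ and 63.2, 103 and 91.8 CPM in controls (log2 change 2.83, SE 0.28, adjusted p = 2.0e-05). CSF1 had 258 and 395 CPM against 54.3, 37.4 and 31.6 (log2 change 3.35, SE 0.29, adjusted p = 6.3e-06). The 2 chains of interleukin-27, IL27 and EBI3, rose by 2.45 and 1.75 (adjusted p = 1.5e-05 and 1.8e-04). IL10 had 237 and 93.2 CPM in IRI CD45+ replicates 1 and 2, against 21.6, 26.3 and 14.8 CPM in controls (log2 change 3.21, SE 0.36, adjusted p = 7.0e-05), and 2.57 without IRI CD45+ replicate 1. The tumor necrosis factor receptor gene TNFRSF1B stood at 1736 and 2150.1 CPM in IRI CD45+ and 413, 486 and 439 CPM in controls (log2 change 2.44, SE 0.19, adjusted p = 1.6e-06). CCR1, a receptor for inflammatory CC chemokines, had 474 and 601 CPM against 62.5, 107 and 75 (log2 change 3.03, SE 0.25, adjusted p = 2.2e-06), and IL4R and CSF2RB, the shared beta chain of GM-CSF, interleukin-3 and interleukin-5 receptors, rose by 2.40 and 2.20 (adjusted p = 2.2e-06 and 3.7e-06). CCR2, the receptor of CCL2 on classical monocytes, had 8.57 and 107 CPM in IRI CD45+ replicates 1 and 2, against 9.67, 7.56 and 7.38 in controls. Its rise (log2 change 3.37, SE 0.94, adjusted p = 0.042) rested on replicate 2: without it the change was 0.31 (adjusted p = 0.757), and its adjusted p was 0.0629, 0.083 and 0.053 without controls 1, 2 and 3.

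Of 12 tested chemokine genes 3 rose and 4 fell, against 18.1% and 23.6% of all genes. CXCL2, a neutrophil attractant, stood at 5538 and 3934 CPM in IRI CD45+ and 1602, 2458 and 2588 in controls (log2 change 1.39, SE 0.20, adjusted p = 2.2e-04), and CCL3L1 at 2704 and 1061 against 483, 343 and 445 (log2 change 2.41, SE 0.31, adjusted p = 3.9e-04; 1.74 without IRI CD45+ replicate 1). In contrast, CXCL10, an interferon-inducible attractant of T cells, had 55.7 and 39.3 CPM in IRI CD45+ and 1068, 619 and 464 CPM in controls (log2 change -3.66, SE 0.40, adjusted p = 1.1e-04). CXCL11 of the same family had 0 UMIs in both IRI CD45+ libraries and 49.1, 9.55 and 29.1 CPM in controls, at least 32.9-fold lower against a floor of 3 UMIs over the group (adjusted p = 0.0095; 0.0851 and 0.219 without IRI CD45+ replicates 1 and 2). CXCL14 had 45.7 and 11.2 CPM against 779, 278 and 443 (adjusted p = 0.012; 0.0607 and 0.133 without those replicates, with log2 changes of -5.06 and -3.23). In the interferon-response list 14 of 32 genes rose and 2 fell (median 0.576). Relative to T-gate cells of the same libraries, 10 of the 32 had a lower change in gated cells and none a higher one (limma, where 10.7% of all genes were lower). EIF2AK2, a sensor of double-stranded RNA, had 241 and 144 CPM against 42.4, 63.3 and 32.4 (log2 change 2.33, SE 0.28, adjusted p = 6.8e-05), and ISG15, a ubiquitin-like protein, 1512 and 843 against 352, 469.9 and 259 (log2 change 1.99, SE 0.26, adjusted p = 1.8e-04). MX2 and SAMD9 rose by 1.43 and 1.95 (adjusted p = 2.3e-04 and 7.4e-04). OAS1, which also senses double-stranded RNA, had 14.3 and 4.12 CPM against 79.6, 94.7 and 61.5 (log2 change -3.17, SE 0.42, adjusted p = 1.2e-04; -2.23 and -3.83 without replicates 2 and 1).

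Genes of NF-kB and its feedback rose where they changed: 9 of 17 genes of the NF-kB feedback list were higher and none lower (median 0.538). Over all genes 18.1% were higher and 23.6% lower. NFKBIA, which holds NF-kB in the cytoplasm and is induced by it, stood at 13524 and 13919 CPM in IRI CD45+ and 5630.5, 7085 and 6129.8 CPM in controls (log2 change 1.43, SE 0.16, adjusted p = 2.1e-05). TNIP3 had 54.3 and 80.8 CPM against 8.18, 6.76 and 6.97 (log2 change 3.59, SE 0.31, adjusted p = 3.7e-06), and BCL3, TNIP1 and NFKBIB rose by 2.03, 1.38 and 1.37 (adjusted p at most 0.0011).

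More genes of the macrophage list fell than rose. Of 13 tested macrophage genes, 5 fell and 1 rose (median -0.586), and of 16 scavenger and clearance receptor genes 6 fell and 1 rose (median -0.875). These 2 lists share members, TREM2 and MERTK among them. Of 10 tested genes of an alveolar macrophage list 3 fell and 1 rose (median -0.259). Of 11 genes of an interstitial macrophage list 6 fell and 3 rose (median -1.019). Over all genes 23.6% fell and 18.1% rose. TREM2, a lipid and apoptotic cell receptor, stood at 4.28 and 11.6 CPM in IRI CD45+ and 138, 103 and 101 CPM in controls (log2 change -3.24, SE 0.36, adjusted p = 2.4e-05; -4.49 without IRI CD45+ replicate 2). VSIG4 had 42.8 and 25.8 CPM against 193, 172 and 262 (log2 change -2.39, SE 0.28, adjusted p = 4.0e-05), and the glycoprotein gene GPNMB 244 and 217 against 1235, 882 and 788 (log2 change -1.77, SE 0.23, adjusted p = 9.0e-05). SIGLEC1 fell by 1.65 (adjusted p = 0.016; 0.0751 and 0.291 without IRI CD45+ replicates 1 and 2). CD209, a lectin of interstitial macrophages and dendritic cells, had 0 and 0.748 CPM against 43.9, 48.9 and 47.1, a ratio of 0.0126 (95% counting interval 0.00152 to 0.0458 from 2 UMIs; adjusted p = 6.1e-06). OLR1, the oxidized LDL receptor, had 27.1 and 70 CPM against 239, 219 and 257 (log2 change -1.84, SE 0.34, adjusted p = 0.0017; -2.91 without IRI CD45+ replicate 2). The efferocytosis receptor genes went apart: MERTK had 136 and 101 CPM against 63.9, 79.2 and 75.4 (log2 change 0.97, SE 0.21, adjusted p = 0.0032), and AXL 40 and 49.8 against 105, 82.4 and 126 (log2 change -0.86, SE 0.27, adjusted p = 0.020), with an adjusted p of 0.0779 without IRI CD45+ replicate 1 and 0.0664 without control replicate 3. The C1q genes themselves did not pass the test. On the monocyte side S100A8 had 411 and 816 CPM against 341, 412 and 546 (adjusted p = 0.055). VCAN rose by 0.99 (adjusted p = 0.014; 0.0554, 0.0519 and 0.0631 without IRI CD45+ replicate 1, control 1 and control 3), 1 of 4 members of the extended monocyte list that rose among 9 tested. Neutrophil markers, CXCL8 among them, summed to 6224 and 3982 CPM in IRI CD45+ and 3910, 4168 and 6061 CPM in controls. Of the 16 markers 11 were listed in both IRI CD45+ libraries, and 2 of 7 tested markers rose. MPO, 1 member, was at 0 in both IRI CD45+ libraries. The sum hides single members: LTF had 93 UMIs over IRI CD45+ and 2 over controls, a ratio of 86.8 (95% counting interval 23.4 to 728). The part of neutrophil RNA in these changes was not tested. Dendritic cell markers summed to 664 and 529 CPM in IRI CD45+ and 344, 423 and 430 CPM in controls, with 1 of 8 tested higher and 2 lower. NK cell markers summed to 214 and 197 CPM against 162, 217 and 206 CPM, and 4 of 6 tested rose. Their part was not tested either.

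Of 25 tested lysosomal genes 4 rose and 7 fell (median 0.007), near the shares of all genes, of which 18.1% rose and 23.6% fell. CTSB (chr14:15014139-15035081) stood at 10278 and 8398 CPM in IRI CD45+ and 2914, 3286 and 2403 CPM in controls (log2 change 2.00, SE 0.17, adjusted p = 3.0e-06). CTSD, the aspartic protease cathepsin D, had 617 and 493 CPM against 2881, 2355 and 3431 (log2 change -2.09, SE 0.21, adjusted p = 1.0e-05). The cholesterol exporter of lysosomes NPC1 and the tetraspanin CD63 rose by 1.26 and 1.04 (adjusted p = 4.0e-04 and 4.9e-04). Of 7 tested MHC class II genes 1 rose and 1 fell: IFI30, a lysosomal thiol reductase, rose by 0.71 (adjusted p = 0.0073) and SLA-DMB fell by 0.66 (adjusted p = 0.018; 0.104 without IRI CD45+ replicate 1 and 0.0502 without control 2). Complement genes gave 2 up and 2 down of 14, below the shares of all genes. CFD, complement factor D, had 368 and 337 CPM against 173, 206 and 234 (log2 change 1.08, SE 0.20, adjusted p = 9.5e-04). CFP, SERPING1 and C2 had adjusted p-values of 0.025, 0.024 and 0.026. Each lost its call without single libraries: CFP had 0.301, 0.11 and 0.0717 without IRI CD45+ replicate 2, control 1 and control 3, SERPING1 0.125 and 0.0818 without IRI CD45+ replicate 2 and control 2, and C2 between 0.0515 and 0.0843 without either IRI CD45+ library, control 2 or control 3.

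**Figure D4:**
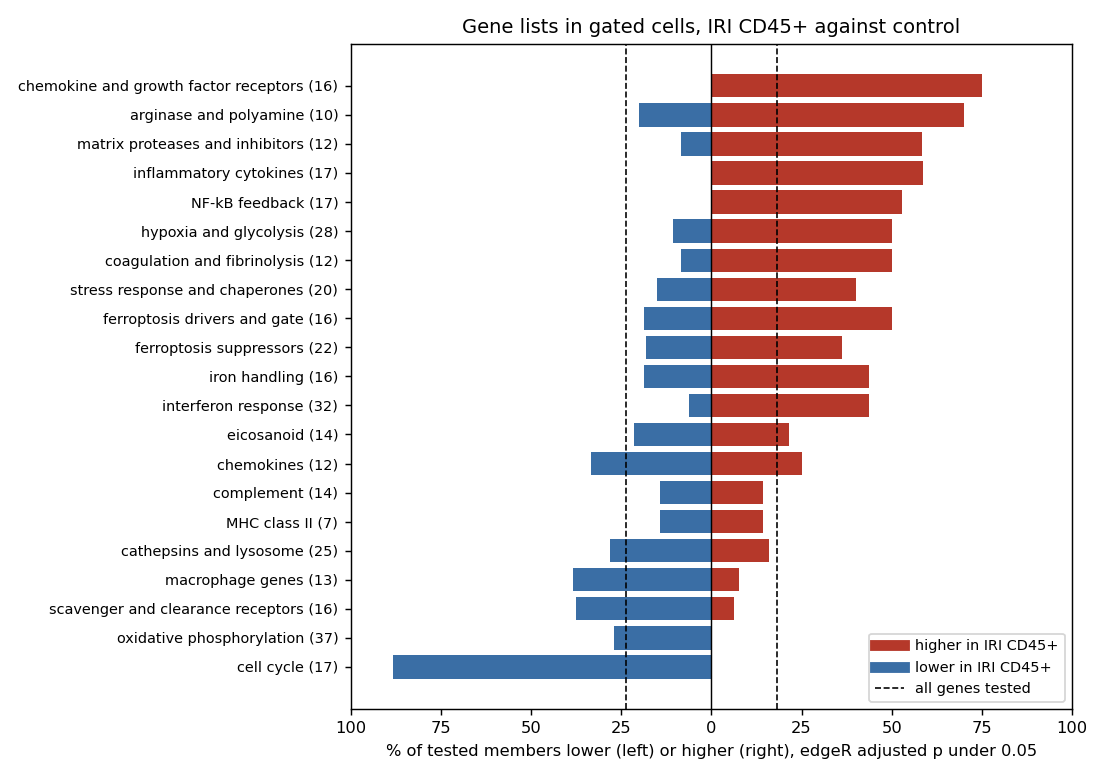
Percent of the tested members of each gene list (number tested in brackets) that were higher (red, right) or lower (blue, left) in IRI CD45+ than in control gated cells, by edgeR at an adjusted p under 0.05, with dashed lines at the shares of all genes (18.1% and 23.6%). Receptor genes lead the higher side with 12 of 16, and cell-cycle genes the lower side with 15 of 17.

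Arginine and polyamine genes gave more rises than falls: 7 of 10 tested genes were higher and 2 lower (median 0.951), against 18.1% and 23.6% of all genes. ARG1 stood at 10083 and 9918 CPM in IRI CD45+ and 662, 934 and 622 CPM in controls (log2 change 4.06, SE 0.20, adjusted p = 2.4e-08), with no overlap. ODC1, ornithine decarboxylase, which starts polyamine synthesis, had 1304 and 1460.5 CPM against 515, 573 and 578 (log2 change 1.63, SE 0.18, adjusted p = 2.1e-05). The arginine transporter SLC7A1 rose by 2.22, and SAT1, which acetylates polyamines, and AZIN1, which frees ornithine decarboxylase from its inhibitor, by 0.93 and 0.97 (adjusted p at most 0.0015).

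Ferroptosis, cell death by iron-dependent lipid peroxidation, is named in the title of the series. Of its driver genes, 8 of 16 tested rose and 3 fell (median 0.639), and of its suppressor genes 8 of 22 rose and 4 fell (median 0.374). Over all genes 18.1% rose and 23.6% fell. ACSL4 (chrX:89760863-89838103), which loads polyunsaturated fatty acids into phospholipids, stood at 278 and 373 CPM in IRI CD45+ and 123, 136 and 104 CPM in controls (log2 change 1.76, SE 0.22, adjusted p = 7.0e-05). SLC39A14, a zinc and iron importer, had 249.9 and 320.3 CPM against 34.2, 49.3 and 29.5 (log2 change 3.24, SE 0.26, adjusted p = 1.9e-06), and the glutamine transporter SLC1A5 and the repressor BACH1 rose by 1.79 and 1.39 (adjusted p = 6.7e-05 and 1.2e-04). ALOX5, 5-lipoxygenase, had 12.9 and 12.7 CPM against 57.3, 68 and 107 (log2 change -2.27, SE 0.35, adjusted p = 2.8e-04). On the protective side, GPX4, the peroxidase that repairs lipid peroxides, had 177 and 142 CPM against 236, 246 and 192 and did not pass the test (log2 change -0.20, SE 0.21, adjusted p = 0.46). SLC7A11, the cystine importer that feeds it, had 57.1 and 32.9 CPM against 19.3, 26.7 and 16 (log2 change 1.34, SE 0.32, adjusted p = 0.0048). SRXN1, sulfiredoxin, had 253 and 202 CPM against 43.1, 49.7 and 53.3 (log2 change 2.51, SE 0.21, adjusted p = 2.2e-06). CD44 rose by 1.33 and HSPB1 fell by 1.11 (adjusted p = 3.0e-04 and 8.7e-04). The desaturase gene SCD had 20 and 20.2 CPM against 237, 111 and 146 (log2 change -2.70, SE 0.37, adjusted p = 2.2e-04), and FADS2 had 0 UMIs in both IRI CD45+ libraries and 21.6, 19.9 and 20.1 CPM in controls, at least 23.1-fold lower (adjusted p = 7.3e-05).

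Iron genes gave 7 up and 3 down of 16 (median 0.341), against 18.1% and 23.6% of all genes. SLC11A1, an iron and manganese exporter of phagosomes, had 376 and 303 CPM in IRI CD45+ and 88.5, 111 and 115 in controls (log2 change 1.98, SE 0.20, adjusted p = 1.1e-05). The metalloreductase gene STEAP4 rose by 3.74 (2.86 without IRI CD45+ replicate 2), the iron chaperone PCBP1 by 2.02 and the iron-responsive aconitase ACO1 by 1.83 (adjusted p at most 1.9e-04). BLVRB, a biliverdin reductase, fell by 2.27 (adjusted p = 1.6e-04). FTL, the ferritin light chain, had 4314 and 5941 CPM against 7046, 5566 and 6019.9 (log2 change 0.04, SE 0.20, adjusted p = 0.89), and its groups overlapped. NCOA4, which takes ferritin to the lysosome, had 40 and 44.9 CPM against 68.4, 78.8 and 75.4 (log2 change -0.47, SE 0.24, adjusted p = 0.13). TFRC, the transferrin receptor, rose by 0.86 (adjusted p = 0.032) with overlapping groups, 34.3 and 52.4 CPM against 33.5, 36.2 and 24.6. Its adjusted p was 0.504 without IRI CD45+ replicate 2 and 0.0749, 0.0679 and 0.128 without controls 1, 2 and 3.

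Matrix, clotting and lipid mediator genes followed. Of matrix proteases and inhibitors 7 of 12 rose and 1 fell (median 1.356), and of coagulation genes 6 of 12 rose and 1 fell (median 0.725). ADAM8, a leukocyte metalloprotease, stood at 358 and 294 CPM in IRI CD45+ and 18.6, 33 and 20.5 CPM in controls (log2 change 4.03, SE 0.25, adjusted p = 2.0e-07). MMP12, macrophage elastase, had 50 and 56.5 CPM against 1.49, 0 and 0.410, a ratio of 116 with a 95% counting interval of 39.0 to 566 from 3 control UMIs (adjusted p = 1.7e-06). MMP14 and MMP9 rose by 1.74 and 2.48 (adjusted p = 7.3e-05 and 4.2e-04; MMP9 1.86 without IRI CD45+ replicate 2), while TIMP3 had 0 UMIs in both IRI CD45+ libraries and 10.4, 14.3 and 13.1 CPM in controls, at least 14.2-fold lower (adjusted p = 4.1e-04). F13A1, the fibrin-crosslinking factor XIII subunit, had 852 and 461 CPM against 117, 123 and 73 (log2 change 2.93, SE 0.27, adjusted p = 1.2e-05). F3, tissue factor, which starts clotting, had 401 and 113 CPM against 72.1, 52.1 and 45.1 (log2 change 2.42, SE 0.48, adjusted p = 0.0067; 1.43 and 3.07 without IRI CD45+ replicates 1 and 2), and the protease inhibitor TFPI2 rose by 3.01 (adjusted p = 2.2e-06). SERPINB2 had 5.71 and 30.3 CPM against 11.9, 4.77 and 2.05, and its call (adjusted p = 0.037) became 0.9 without IRI CD45+ replicate 2, 0.118 without control 2 and 0.0802 without control 3. Of 14 eicosanoid genes 3 rose and 3 fell, near the shares of all genes, of which 18.1% rose and 23.6% fell. TBXAS1, thromboxane synthase, had 196 and 214 CPM against 55.8, 83.5 and 52.9 (log2 change 1.99, SE 0.23, adjusted p = 4.0e-05), PLA2G7 fell by 1.25 (adjusted p = 0.0017), and PLA2G4A, cytosolic phospholipase A2, fell by 1.26 (adjusted p = 0.028; 0.089 without IRI CD45+ replicate 1 and 0.111 without control 3).

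In energy metabolism, 14 of 28 hypoxia and glycolysis genes rose and 3 fell (median 0.692), while 0 of 37 genes of oxidative phosphorylation rose and 10 fell (median -0.339), a fallen share near the 23.6% of all genes. PKM, a pyruvate kinase, had 481 and 642 CPM in IRI CD45+ and 236, 325 and 195 in controls (log2 change 1.48, SE 0.24, adjusted p = 5.1e-04), and the enolase ENO1 and the hexokinase HK3 rose by 0.99 and 1.29 (adjusted p = 0.0022 and 0.0027). EPAS1, a hypoxia-inducible transcription factor, rose by 2.03 (adjusted p = 5.7e-04; 1.38 without IRI CD45+ replicate 2), and P4HA1, a collagen prolyl hydroxylase, fell by 1.49 (adjusted p = 0.0026; -2.42 without that replicate). NDUFC2 of respiratory complex I had 25.7 and 31.1 CPM against 242, 194 and 137 (log2 change -2.38, SE 0.30, adjusted p = 6.4e-05). NDUFB10, NDUFB7, NDUFS3 and SDHB had log2 changes of -1.73, -1.22, -1.17 and -1.09 (adjusted p at most 0.0026; NDUFB10 -2.60 without IRI CD45+ replicate 2). Stress genes gave 8 up and 3 down of 20 (median 0.426), against 18.1% and 23.6% of all genes. HSPA5, the chaperone of the endoplasmic reticulum, stood at 2063 and 1938 CPM against 813, 688 and 628 (log2 change 1.80, SE 0.18, adjusted p = 1.0e-05), and ATF4, TRIB3 and HSPA9 rose by 1.40, 2.12 and 1.48 (adjusted p at most 1.3e-04). DNAJB1, a heat-shock co-chaperone, had 137 and 132 CPM against 762, 689 and 971 (log2 change -2.28, SE 0.22, adjusted p = 8.3e-06).

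Cell-cycle genes fell almost throughout, 15 of 17 tested with none higher (median -3.296, the same with the 2 genes at 0 in IRI CD45+ set at their bound). STMN1, a microtubule regulator of dividing cells, had 7.14 and 13.1 CPM in IRI CD45+ and 287, 177 and 184 CPM in controls (log2 change -3.91, SE 0.36, adjusted p = 7.8e-06; -4.68 without IRI CD45+ replicate 2). TOP2A, which untangles replicated DNA, had 1.43 and 1.87 CPM against 37.2, 17.5 and 23 (log2 change -3.46, SE 0.58, adjusted p = 5.9e-04). NUSAP1 fell by 1.73 and MCM7 by a log2 change of -2.04 (adjusted p = 2.4e-04 and 0.0011; MCM7 -3.29 without IRI CD45+ replicate 2), and MCM3, of the replicative helicase, had 0 UMIs in both IRI CD45+ libraries, at least 13.2-fold lower. Relative to T-gate cells of the same libraries, 7 of the 17 had a lower change in gated cells and none a higher one (limma, where 10.7% of all genes were lower).

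The share of C1Q-high cells differed between libraries, so the comparison was repeated within each range. In C1Q-high cells 15.5% of 6424 genes were higher and 16.2% lower in IRI CD45+, and in C1Q-low cells 15.1% and 17.3% of 7114. ARG1 changed by 3.71 (adjusted p = 5.0e-08) in C1Q-high and 3.83 (adjusted p = 8.0e-09) in C1Q-low cells, CTSB by 1.92 (adjusted p = 1.2e-05) and 2.10 (adjusted p = 9.4e-07), IL10 by 3.47 (adjusted p = 1.8e-04) and 2.60 (adjusted p = 9.2e-04), and ACSL4 by 1.67 (adjusted p = 4.4e-04) and 1.41 (adjusted p = 2.1e-04), by edgeR. Receptor genes gave 8 up of 13 tested in C1Q-high cells, inflammatory cytokine genes 6 up of 12, and neither list had a fall in either range. Of the macrophage list, 3 of 13 fell in C1Q-high and 5 of 10 in C1Q-low cells. TREM2 and VSIG4 changed by -4.13 (adjusted p = 4.7e-04) and -1.62 (adjusted p = 7.8e-04) in C1Q-high cells. S100A8 was higher in C1Q-low cells by 1.75 (adjusted p = 9.6e-04), against -0.73 (adjusted p = 0.44) in C1Q-high cells. Of 6 tested neutrophil markers 3 rose in C1Q-low cells, S100A8 among them, and none fell. In C1Q-low cells these markers, CXCL8 included, summed to 3968 and 4117 CPM in IRI CD45+, with MPO at 0 in both, and 2177, 3583 and 3150.1 CPM in controls. Their part was not tested. CFD changed by -0.08 (adjusted p = 0.85) and CFP by -0.25 (adjusted p = 0.52) in C1Q-high cells, against 1.23 (adjusted p = 5.6e-04) and 0.98 (adjusted p = 0.012) in C1Q-low cells. SLC7A11 passed in neither range, with 1.06 (adjusted p = 0.13) in C1Q-high and 0.86 (adjusted p = 0.14) in C1Q-low cells. Further calls were lost in C1Q-high cells for MERTK, BCL3, EPAS1 and PLA2G7 (adjusted p = 0.077, 0.057, 0.13 and 0.074), and CXCL10 had an adjusted p of 0.060 in C1Q-low cells. The difference between the ranges was not tested.

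T cells of the same libraries passed through the same sort, animals and counting, so the change in gated cells was set against the change in T-gate cells (1718 and 909 cells in IRI CD45+, 1020, 1329 and 1106 in controls). The difference was tested with limma on log2 CPM differences per library. Of 13642 genes, 1076 (7.89%) had a higher and 1456 (10.7%) a lower change in gated than in T-gate cells. Leaving out 1 library gave 537 to 892 higher and 611 to 2154 lower genes. Of 17 NF-kB feedback genes 2 had a higher and 3 a lower change than in T-gate cells (median difference -0.22). Receptor genes gave 5 and 2 of 17 (median -0.077) and inflammatory cytokine genes 3 and 2 of 17 (median 0.671). Genes of oxidative phosphorylation gave 0 and 4 of 37 (median 0.042). Iron genes gave 0 and 1 of 16 (median 0.314) and lysosomal genes 2 and 6 of 25 (median -0.526). Ferroptosis drivers gave 5 and 2 of 19, suppressors 4 and 3 of 23, and arginine and polyamine genes 4 and 1 of 12. Stress genes gave 7 and 2 of 20, and hypoxia and glycolysis genes 9 and 2 of 29. Matrix genes gave 3 and 0 of 12, and coagulation genes 4 and 1 of 12. Over all genes the median difference was -0.101. The difference for CTSB did not pass this test, at -0.11 (SE 0.19, adjusted p = 0.70). T-gate cells had 610.2 and 706 CPM of CTSB in IRI CD45+ and 162, 217 and 149.9 CPM in controls, a log2 change of 2.11. ARG1 was higher in T-gate cells as well, 79.9 and 183 CPM in IRI CD45+ and 0.963, 1.7 and 1.61 CPM in controls. In gated cells ARG1 rose by a log2 change of 4.06 (edgeR). Its negative difference thus lay in a larger rise in T-gate cells, from low control levels. The difference for ARG1 was -2.26 (SE 0.46, adjusted p = 0.0055), -1.83 (adjusted p = 0.0527) without IRI CD45+ replicate 2 and -1.60 (adjusted p = 0.0708) against B-gate in place of T-gate cells. IL10 rose beyond the T-gate change by 3.26 (SE 0.37, adjusted p = 1.6e-04), with 35.7 and 48.5 CPM in T-gate cells of IRI CD45+ and 49.9, 67.8 and 45.1 CPM in those of controls. Without IRI CD45+ replicates 1 and 2 the IL10 difference was 2.51 and 3.99, and against B-gate cells it was 0.18 (adjusted p = 0.842). ACSL4 rose beyond T-gate cells by 1.40 (SE 0.23, adjusted p = 0.0014). The differences for GPX4 and NCOA4 were -0.66 (SE 0.20, adjusted p = 0.038) and -0.89 (SE 0.25, adjusted p = 0.025), and against B-gate cells that of NCOA4 was -0.73 (adjusted p = 0.106). FTL and SLC7A11 gave 0.07 (SE 0.17, adjusted p = 0.81) and -0.47 (SE 0.49, adjusted p = 0.52). Both GPX4 and NCOA4 lost their call without IRI CD45+ replicate 1 (adjusted p = 0.0775 and 0.0881) and without control 2 (0.159 and 0.0925), GPX4 also without control 1 (0.0929) and NCOA4 without control 3 (0.0746).

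The largest positive differences were TMEM26 with 5.87 (SE 0.68, adjusted p = 1.7e-04), MMP12 with 5.63 (SE 0.60, adjusted p = 1.2e-04) and ADGRL2, an adhesion receptor, with 5.46 (SE 0.76, adjusted p = 6.0e-04). ISG12(A), an interferon-induced gene, PHLDB1 and the complement protease C1R followed with 5.02, 4.57 and 4.45. For C1R the gated cells had 111 and 81.2 CPM in IRI CD45+ and 142, 144 and 141 CPM in controls (edgeR adjusted p = 0.29), while T-gate cells had 0.684 and 1.08 CPM in IRI CD45+ and 15, 58.5 and 48.2 CPM in controls. The difference thus rested on the T-gate side. Fibroblast RNA such as COL3A1 was lower in T-gate cells too, with a log2 change of -8.21. On the negative side OLR1 had -5.22 (SE 0.69, adjusted p = 4.9e-04) and CXCL10 -5.21 (SE 0.50, adjusted p = 6.7e-05). OLR1 fell in gated cells (log2 change -1.84, edgeR). T-gate cells had 3.76 and 4.96 CPM of OLR1 in IRI CD45+ and 0, 0.566 and 0.484 CPM in controls. More of the OLR1 difference thus lay on the T-gate side, where control levels were near 0. CXCL10 stood at 56.5 and 72.9 CPM in T-gate cells of IRI CD45+ and 13.9, 31 and 27.4 CPM in those of controls, against the fall in gated cells. TMEM86A, CKAP2L, GPR84, a receptor of medium-chain fatty acids, and G0S2, an inhibitor of lipolysis, had -4.56, -4.51, -4.27 and -4.17. Over single libraries left out, ADGRL2 ran between 4.03 and 6.95, ISG12(A) between 4.40 and 5.67, OLR1 between -5.90 and -4.55, GPR84 between -4.98 and -3.58 and G0S2 between -4.88 and -3.48, and all 12 genes kept their call without any 1 library. CXCL10 had -4.56 without control replicate 1. Against B-gate cells the difference for ISG12(A) was 1.80 (adjusted p = 0.0605).

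**Figure D5:**
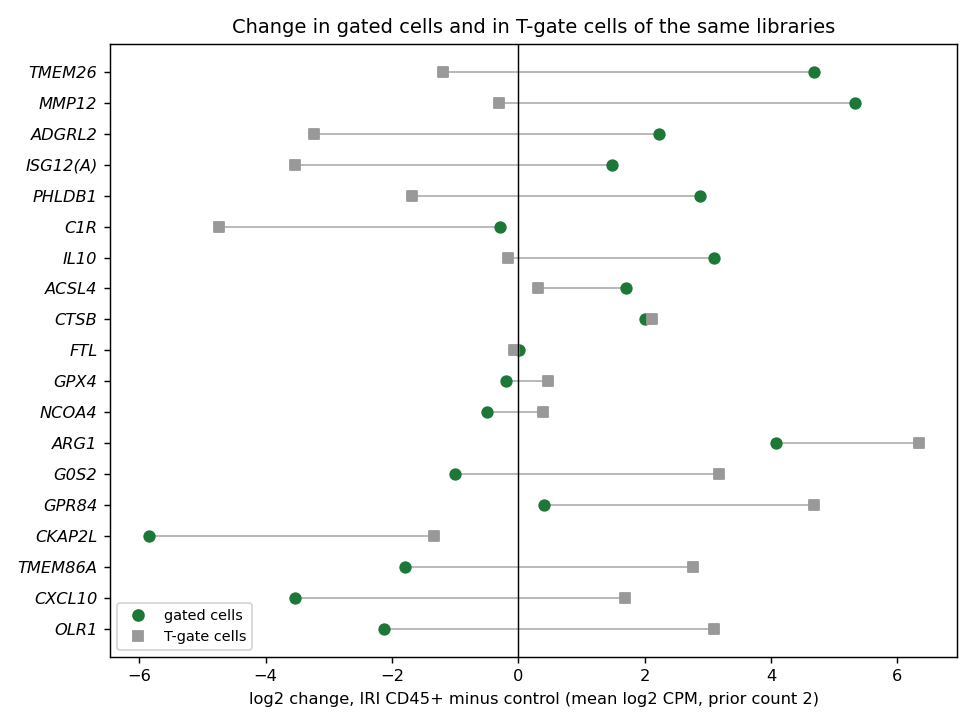
Change between IRI CD45+ and control libraries (log2, difference of mean log2 CPM with prior count 2) in gated cells (green circles) and in T-gate cells of the same libraries (grey squares) for named genes, joined by a line. CTSB and FTL lie close together in both cell sets, ARG1 is higher in both, and the 6 genes at the top and the 6 at the bottom have the largest differences.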

How the data were processed

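Single cells of pig lung were measured by droplet single-cell RNA sequencing (DNBelab C Series) in 6 libraries. The authors deposited matrices of UMI counts, made with PISA per the file headers, and the submitters' processing notes name Seurat 5.5.3, R 4.2.2 and the build Sscrofa11.1. The count matrices of graft and control libraries list different gene sets, and the IRI CD45+ matrices list no mitochondrial genes, so tests used the 23668 genes listed in all 5 libraries compared. Totals were 700684 and 2674814 UMIs in gated IRI CD45+ cells and 1471759, 2734864 and 2674229 in gated control cells.

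UMIs were summed per library and gate. IRI CD45+ and control sums were compared with edgeR 4.0.16 (TMM, filterByExpr, robust quasi-likelihood) and differences of change with limma 3.58.1 (prior count 2), at an adjusted p of 0.05, in R 4.3.3. Gate genes were left out of the tests, CD3D out of the difference and C1q genes out of the C1Q counts. Within libraries a gene was called at 2-fold in both, with a pseudocount of 10 CPM and at least 20 CPM in one set of both libraries. Cells were handled with Python 3.11.15 and scanpy 1.11.5, and DESeq2 1.42.0 was an alternative. Tested on simulated data with 10296 genes, the first comparison found 30.2% of 2-fold and 86.5% of 4-fold changes, and with 13232 genes the difference found 7.0% and 67.0%.

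The cells and gene lists were chosen with earlier results of these data known. Named genes were the 10 largest changes each way between IRI CD45+ and control (at least 50 CPM, no overlap), the 12 largest each way within libraries (at least 100 CPM), up to 5 of each list by p, the 6 largest differences each way, and fixed markers. Identifiers without a symbol were skipped in each of these, and the C1Q split took the place of the planned score. MKI67, HMOX1, FTH1, S100A9, IL1B and CD3G were not analysed here. Coordinates and the overlap of CCDC152 are from the RefSeq annotation of Sscrofa11.1. Replicate numbers were not used to pair the samples in the main comparisons. Some genes of the lists are not reported here by name.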

Additional observations from a re-analysis of the deposited data

Results flagged for a closer look

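Of 22 named genes tested, 17 had a change between IRI CD45+ and control that differed between gated and T-gate cells (limma). The 6 largest differences each way were named from this same test, so the count follows from the choice of genes. Over all 13642 genes, 7.89% had a higher and 10.7% a lower change in gated cells. The difference on the log2 scale was 5.87 for TMEM26, 5.63 for MMP12, 5.46 for ADGRL2, 5.02 for ISG12(A), 4.57 for PHLDB1, 4.45 for C1R, 3.26 for IL10 and 1.40 for ACSL4. It was -5.22 for OLR1, -5.21 for CXCL10, -4.56 for TMEM86A, -4.51 for CKAP2L, -4.27 for GPR84, -4.17 for G0S2, -2.26 for ARG1, -0.89 for NCOA4 and -0.66 for GPX4. For C1R, OLR1, CXCL10 and ARG1 part of the difference lay in T-gate cells, as given above.

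Only the named genes (185 in all) were scanned for opposite changes in the C1Q ranges. In 6 of them all C1Q-high values and all C1Q-low values moved in opposite directions between IRI CD45+ and control, a difference that was not tested. The share over all genes was not counted. RARRES1, CST3, CCDC152 and SLA-DQB1 had been named as higher in C1Q-high than in C1Q-low cells of these IRI CD45+ libraries. That choice favours a positive difference for them. On the scale of log2(mean CPM + 10), the change in C1Q-high minus that in C1Q-low cells was 3.76 for RARRES1, 3.02 for CST3, 2.38 for CCDC152, 1.16 for SLA-DQB1, -1.04 for CFP and -1.90 for GPR84.

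The CD45- graft library entered no comparison. Its gated cells lay close to the limit of the gate, with a median of 4 UMIs of the 4 gate genes, against 16, 13 and 14 in controls 1 to 3. Exactly 3 such UMIs were held by 45 of these cells, and 88.6% of them had no C1q UMI. Its 114 cells that passed the gate stood above every control library for 5 of the fixed marker genes, with 3650 CPM of CTSB, 4410 CPM of ARG1, 443 CPM of ACSL4, 58.2 CPM of TFRC and 542 CPM of S100A8. It is 1 library, so this was not tested.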

How the results depend on the processing

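Alternatives are counted as changed when a count moved by over 1.5 times, or a share left its 95% interval. Between IRI CD45+ and control, 1482 of 7394 genes were lower with sums thinned to the smallest, where the main comparison tested 10632. Higher and lower genes were 1005 and 1106 of 5599 with spans under 50 kb, 996 and 1043 of 6424 in C1Q-high cells, and 1074 and 1232 of 7114 in C1Q-low cells (a split added after seeing the data). Fewer genes were tested in each of these alternatives, so their counts are not on the base of the main comparison. Leaving out 1 library gave 1307 to 2081 higher and 1684 to 2337 lower. For the difference from T-gate cells, a prior count of 0.5 gave 638 higher, B-gate cells gave 785 lower, and leaving out 1 library gave 537 to 892 higher and 611 to 2154 lower. The labels do not say whether libraries with the same replicate number share an animal. The same-number correlations (-0.0293 and 0.0275) cannot tell, because with 2 IRI CD45+ libraries each value has an equal and opposite partner. With a replicate block 1459 genes were higher and 1931 lower between the groups, and 347 and 474 in the difference from T-gate cells.

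A pseudocount of 50 CPM gave 235 and 172 genes against other cells and 30 and 17 between C1Q ranges. Neutrophil-gate cells in place of all others gave 184 and 167, and limits of 0.1% and 0 UMIs gave 42 lower in C1Q-high cells. Too few cells were monocyte-like by the planned score to compare (minimum 10), so its alternatives on cell limit, gate, doublets, pseudocount and score limits were not run. The extended monocyte list gave 111 higher and 43 lower from 7 and 58 monocyte-like cells. The macrophage-like share was 78.57% and 45.02% in IRI CD45+ and 74.36%, 76.95% and 76.78% in controls by that list. By detected genes it was 67.91% in IRI CD45+ replicate 2 and 90.24% in control 2. With a limit of 0.5%, 8.594% of gated cells were C1Q-high in IRI CD45+ replicate 2 and 21.43%, 27.27% and 39.50% in controls, and with 0.1% it was 70.11% in control 3.

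The share passing the gate, with MHC class II at 0.5%, was 0.9035% and 3.754% in IRI CD45+, 0.2325% in CD45- and 1.493%, 2.852% and 2.969% in controls. Thinned to 1000 UMIs it was 0.6390% and 3.366%, 0.1833%, and 1.311%, 1.830% and 1.634%. With 2 gate UMIs it was 7.139% in IRI CD45+ replicate 2, 1.568% in CD45- and 4.728% in control 2, and with 5 it was 5.348%, 0.3454% and, in control 3, 3.676%. With 1000 UMIs per cell it was 7.641% in IRI CD45+ replicate 2.

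Of 120 named genes called between the groups, 119 stayed called with the DESeq2 Wald test, 111 with the replicate block, and 94 of 108 in C1Q-high cells. Many of them were named for large changes or small p-values in this same comparison, which favours keeping a call. The share kept over all called genes is not given. CFD and CFP lost their call in C1Q-high cells, with log2 changes of -0.08 and -0.25 (adjusted p = 0.847 and 0.516). The cause of these changes was not tested. The 58 cells of IRI CD45+ replicate 1 limit what low genes can show.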

Other observations

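CTSB (chr14:15014139-15035081) and FDFT1 (chr14:14976259-15010701) are neighbours on chromosome 14 of Sscrofa11.1, and both were higher in IRI CD45+ in either cell set. In gated cells their log2 changes were 2.00 and 4.62, and in T-gate cells 2.11 and 2.04. In T-gate cells FDFT1 had 166 and 227 CPM in IRI CD45+ and 51.8, 55.2 and 55.1 CPM in controls.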
